A study of Arabidopsis thaliana with 18 samples.

Results

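The photoperiod florigen genes of Arabidopsis thaliana are CO (AT5G15840), FT (AT1G65480), TSF (AT4G20370) and FD (AT4G35900). They were chosen by locus identifier, not by a measured value, and all 4 were found among the 37899 genes of the 5 nuclear chromosomes in the RefSeq annotation. Acetylated forms of 2 residues of histone H3, lysine 9 (H3K9ac) and lysine 14 (H3K14ac), had been mapped by chromatin immunoprecipitation and sequencing (ChIP-seq), and each library came as a list of called peaks with a number of reads per peak. The 9 lists comprised H3K9ac in hda9-1, pwr-2 and wild type (WT) with 2 libraries each, and H3K14ac in the same 3 genotypes with 1 library each. The hda9-1 mutant carries a mutant allele of the histone deacetylase gene HDA9 and pwr-2 one of POWERDRESS, whose protein acts with HDA9. Each mutant is represented by a single allele in the Col ecotype, which is also the WT. All plants were whole seedlings, 10 days old, grown on agar plates in long days (16 h light, 8 h dark, 23 °C), in which the photoperiod pathway is active. The labels describe the H3K9ac replicates as biological and do not say how they were grown apart, so p-values measure only the spread between these libraries.

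In long days, light stabilizes CO, a B-box zinc finger transcription factor, late in the afternoon in the vascular tissue of leaves. CO with NF-Y proteins then activates FT and its close paralog TSF, which encode small mobile proteins of the PEBP family. FT protein moves through the phloem to the shoot apex and binds the bZIP factor FD, and the complex activates floral genes such as AP1, FUL and SOC1. Histone acetylation of this kind typically marks the start of transcribed genes, and histone deacetylases remove it. FT and FD are transcribed in few cell types, and in a whole seedling a mark present in few cells cannot be told apart from a mark that is weak in many.

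The H3K9ac peaks held 12.3 and 18.2 M reads in hda9-1, 3.76 and 8.87 M in pwr-2, and 1.95 and 2.22 M in WT. The H3K14ac peaks held 0.875 M reads in hda9-1, 1.09 M in pwr-2 and 0.668 M in WT. A gene without a peak is therefore one where none was called at that depth. Genotypes follow the genotype label (some titles write hdac for hda9-1), since peak lists do not test whether a library came from its genotype. Peaks ran in steps of 200 bp. The seedling genes RBCS1A, PSBO1 and CAB2 and the housekeeping genes ACT2 and UBQ10 had H3K9ac peaks in all 6 libraries. The seed genes LEC1, CRA1, SESA3 and OLEO1 had no peak in any of the 9. For H3K14ac, RBCS1A, PSBO1 and CAB2 had 0 bp in every genotype. ACT2 had 0 bp of H3K14ac in both mutants and 1400 bp in WT. UBQ10 had 0 bp in hda9-1, 1200 bp in pwr-2 and 1600 bp in WT. A missing H3K14ac peak was thus also seen at seedling and housekeeping genes.

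CO was the member with H3K9ac in every library, while the H3K9ac peaks that reached FT, TSF or FD lay in mutant libraries alone and in no more than 1 library of each mutant. H3K14ac lay over CO in WT and pwr-2 and over FD in all 3 genotypes, and never over FT or TSF. By the share of the gene under H3K9ac peaks, FT led in replicate 1 of each mutant, FD in replicate 2 of each mutant and CO in both WT libraries, so the order of the members was not stable between replicates.

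**Figure D1:**
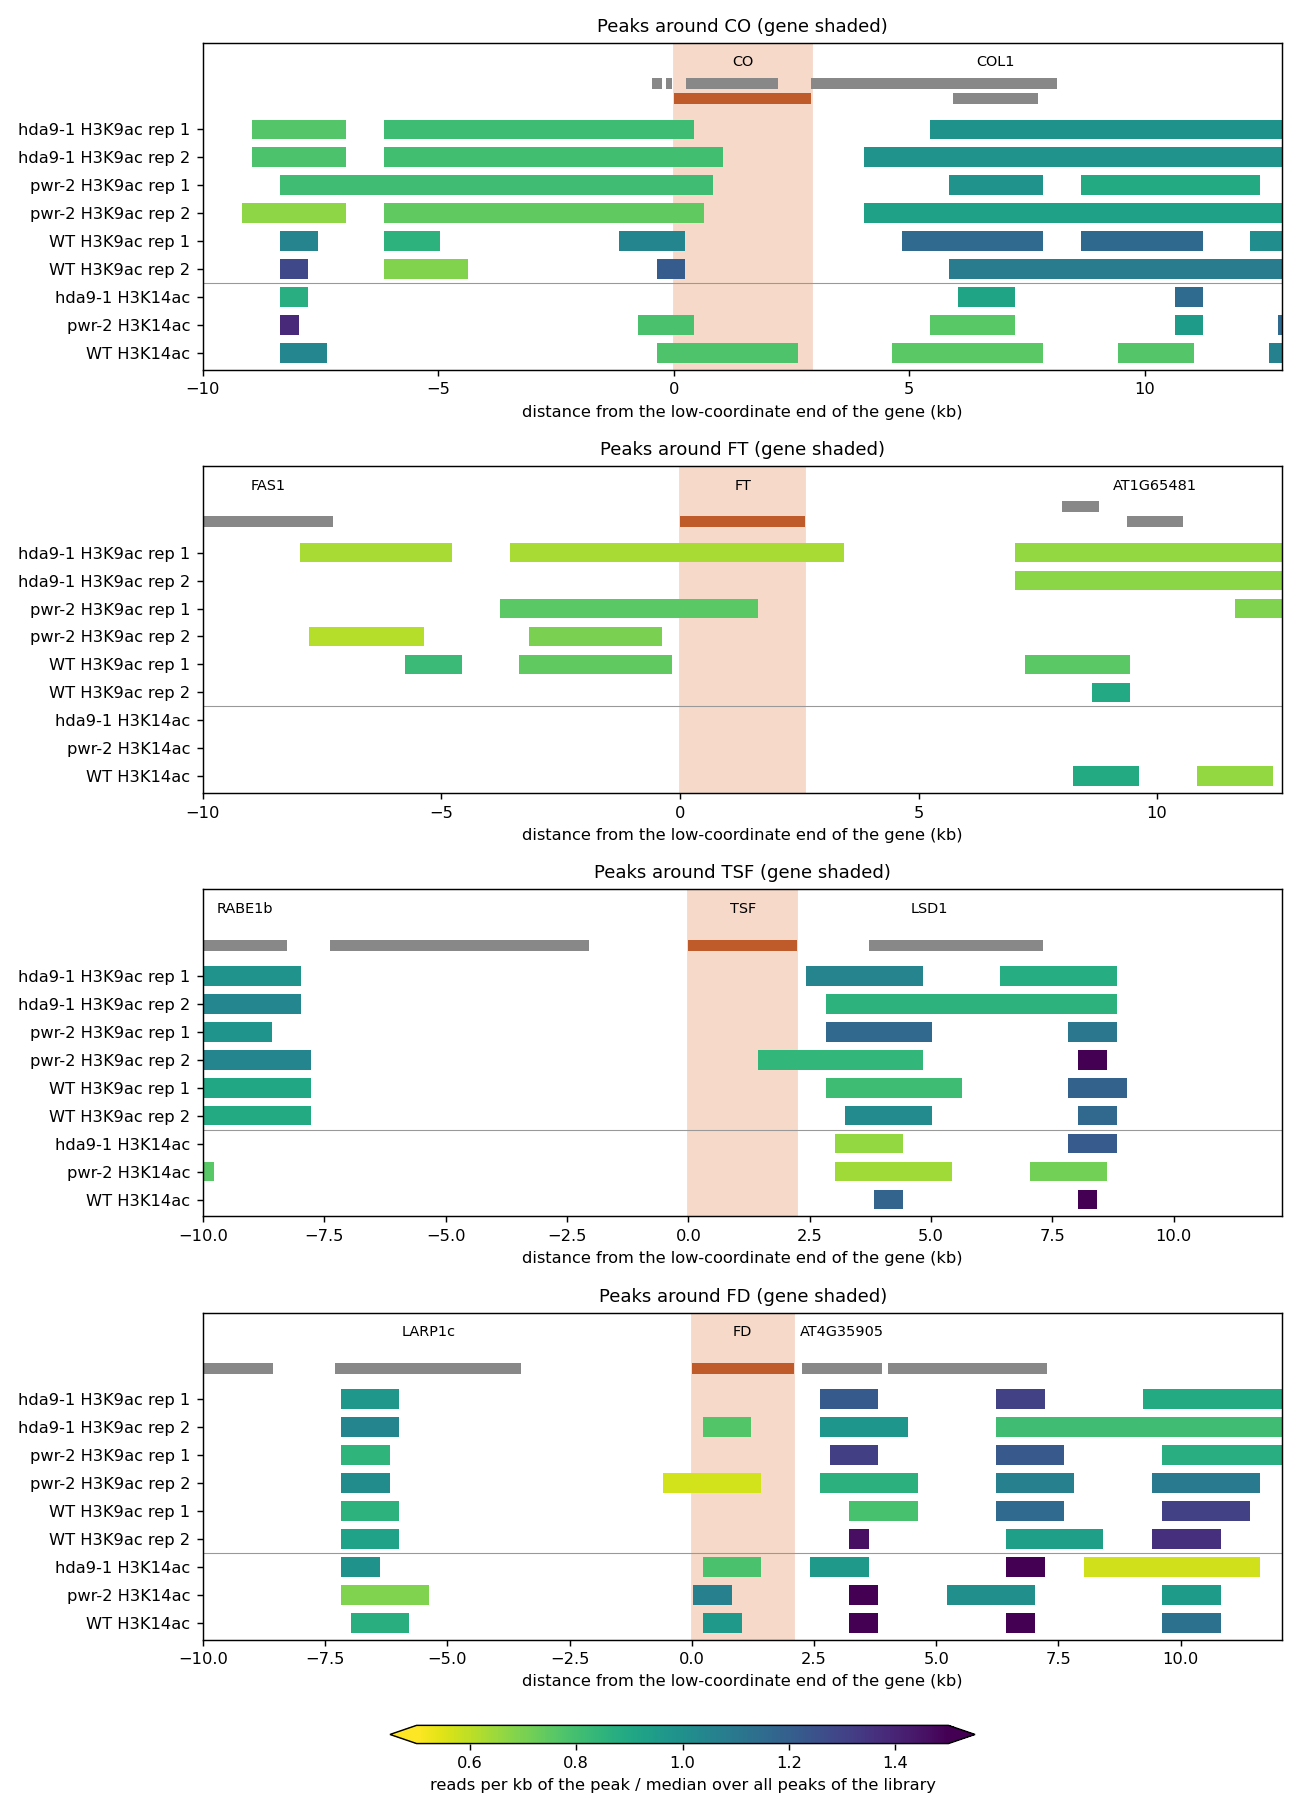
Peaks called in each library around CO, FT, TSF and FD, with the distance from the low-coordinate end of the gene in kb on the horizontal axis and 1 row per library. Boxes above the rows are the member and its nearest annotated genes, the shaded span is the member, and colour gives reads per kb of a peak divided by the median over all peaks of that library. The 4 mutant H3K9ac libraries join separate WT peaks into 1 long peak that ends inside CO, the peak over FT is present in replicate 1 of each mutant, and the peak over FD in replicate 2 of each mutant.

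CO, the transcription factor at the head of the pathway, had more of its length under H3K9ac peaks in both mutants when every deposited peak was used. The direction turned in hda9-1 with the peaks cut to equal length, and in both mutants without the sparsest 25% of peaks. Peaks covered 439 and 1039 bp of its 2924 bp in hda9-1 replicates 1 and 2, 839 and 639 bp in pwr-2, and 239 bp in each WT library. The lowest mutant library lay above both WT libraries. Means were 739 ± 424 bp in the hda9-1 libraries and 739 ± 141 bp in the pwr-2 libraries, against 239 ± 0 bp in WT (SD, n = 2 each). Each difference of 500 bp had an exact permutation p of 0.333, two-sided, which is the smallest that 2 against 2 libraries allow. The hda9-1 difference was 800 bp without hda9-1 replicate 1 and 200 bp without hda9-1 replicate 2. With each library cut to its densest peaks until it covered about as much of the genome as the least covered library, it was -19.5 bp, and hda9-1 replicate 2 then had 0 bp at CO. Over all genes, 14.4% were likewise covered further in both hda9-1 libraries than in both WT libraries, and 7.87% in both pwr-2 libraries.

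A gene was taken as marked where peaks covered at least 250 bp of the 500 bp at either end, and as gained where both libraries of a mutant were marked and no WT library was. By this rule CO was gained in both mutants, 1 of the 4 members, beside 3.83% of all genes in hda9-1 and 2.08% in pwr-2, and 1.59% in both. Of the genes left unmarked by both WT libraries, as CO was, 7.45% were gained in hda9-1 and 4.05% in pwr-2. The low-coordinate end of CO held 439 and 500 bp of peak in hda9-1, 500 bp in both pwr-2 libraries and 239 bp in both WT libraries, so WT missed the limit by 11 bp. With any overlap as the rule, CO had a peak in all 6 libraries and was not gained. In hda9-1 it was also not gained with peaks cut to equal length or with 90% of an end required, and in neither mutant without the sparsest 25% of peaks. None of the 4 members was lost, against 0.438% of all genes in hda9-1 and 0.599% in pwr-2.

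The extra cover of CO came from long peaks that began beyond the gene. The peak that reached CO ran from 5164001 to 5170600 in hda9-1 replicate 1 and from 5164001 to 5171200 in replicate 2 (chromosome 5, TAIR10). In pwr-2 it ran from 5161801 to 5171000 and from 5164001 to 5170800. In WT it was short, from 5169001 to 5170400 in replicate 1 and from 5169801 to 5170400 in replicate 2. A separate WT peak started at 5164001 in both libraries and ended at 5165200 and 5165800. The mutant peaks thus spanned the interval between these WT peaks, where at least part of the transcription factor gene bZIP3 lies, and reached further into CO.

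Read density in these long peaks was low for their libraries. The peak at CO held 366 and 503 reads per kb in hda9-1, 124 and 258 in pwr-2, and 92.1 and 118 in WT. Divided by the median peak of the same library, that is 0.812 and 0.803 in hda9-1, 0.807 and 0.742 in pwr-2, and 1.04 and 1.21 in WT. All 4 mutant peaks were below their library's median and both WT peaks above it. When the 25% of peaks with the fewest reads per bp were left out of each library, none of the 4 mutant libraries kept a peak at CO, against 239 bp in each WT library, so that the difference turned to -239 bp in both mutants.

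Reads were also compared over merged regions, made by joining overlapping or touching H3K9ac peaks of the 6 libraries. The count of a region in a library was the sum of the reads listed for its called peaks. Reads outside called peaks were not counted. The region at CO ran from 5161001 to 5171200 and held 1039 bp of the gene. Counts were scaled to each library's called-peak reads in regions with a peak in all 6 libraries, with TMM scaling. The region then held 288 and 290 counts per M reads (CPM) in hda9-1, 341 and 285 in pwr-2, and 163 and 132 in WT. It showed no overlap between mutants and WT, and the share of all regions without overlap was not counted. Its log2 change was 0.97 ± 0.16 in hda9-1 and 1.08 ± 0.16 in pwr-2 (SE), with adjusted p of 0.237 and 0.1805 in edgeR's quasi-likelihood test over 8287 regions. Neither passed 0.05, and edgeR called 0 regions in either direction in both comparisons (0% of those tested), with 1013 regions at an unadjusted p below 0.05 in hda9-1 and 1217 in pwr-2. DESeq2 called the region of CO higher in both mutants (adjusted p = 0.00189 in hda9-1 and 0.000255 in pwr-2), among 1.29% of regions called higher in hda9-1 and 1.58% in pwr-2, with 0.543% and 0.99% called lower. These counts grow with the length of the called peak. Per covered bp, the log2 change was -0.27 (adjusted p = 0.393, edgeR) in hda9-1 and -0.32 (0.273) in pwr-2.

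H3K14ac at CO ran the other way. No peak lay on CO in hda9-1, where the nearest was 3116 bp away, 439 bp were covered in pwr-2, and 2639 bp, or 90.3% of the gene, in WT. The WT peak, from 5169801 to 5172800, also covered the whole of AT5G15843, a gene annotated inside CO. The called H3K14ac peaks of the WT library held the fewest reads of the 3, and the part of depth in this was not tested. With 1 library per genotype there is no replicate check. Of the genes with an H3K14ac peak in WT, 11% had none in hda9-1 and 10.5% none in pwr-2, and the cover was shorter than in WT for 45.2% in hda9-1 and for 40.7% in pwr-2. Cover that was longer for H3K9ac in every mutant library and shorter for H3K14ac in both mutants, a combination defined after the values of CO were seen, held for 419 genes or 1.11%. The WT peak held 0.778 times the median read density of its library. Without the sparsest 25% of peaks, CO had 0 bp of H3K14ac in every genotype.

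The gene annotated inside CO, AT5G15843, had 185 and 785 bp of H3K9ac in hda9-1, 585 and 385 in pwr-2, and 0 bp in both WT libraries. Cover above both WT libraries was seen at 14.4% of all genes in hda9-1 and 7.87% in pwr-2. COL1, a tandem paralog of CO, was covered over its whole 1807 bp by H3K9ac in all 6 libraries. MIR865, which lies between bZIP3 and CO, was covered over its whole 142 bp in all 6. For H3K14ac, COL1 was covered over 1200 bp in hda9-1, 1310 bp in pwr-2 and 1807 bp in WT. With 5 kb on each side, H3K9ac peaks covered 8924 ± 1414 bp around CO in hda9-1 and 8681.5 ± 1191 bp in pwr-2, against 3881.5 ± 788 bp in WT. The exact permutation p was 0.333 for each mutant, and neither mutant overlapped WT. The share of all genes with this in such windows was not counted. H3K9ac peaks covered more of the genome in every mutant library than in WT. Without the sparsest 25% of peaks, these differences of 5042.5 and 4800 bp became -377 bp for hda9-1, and for pwr-2 -619.5 bp. The mutants themselves differed by 242.5 bp, less than the SD of either (exact permutation p = 0.667).

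**Figure D2:**
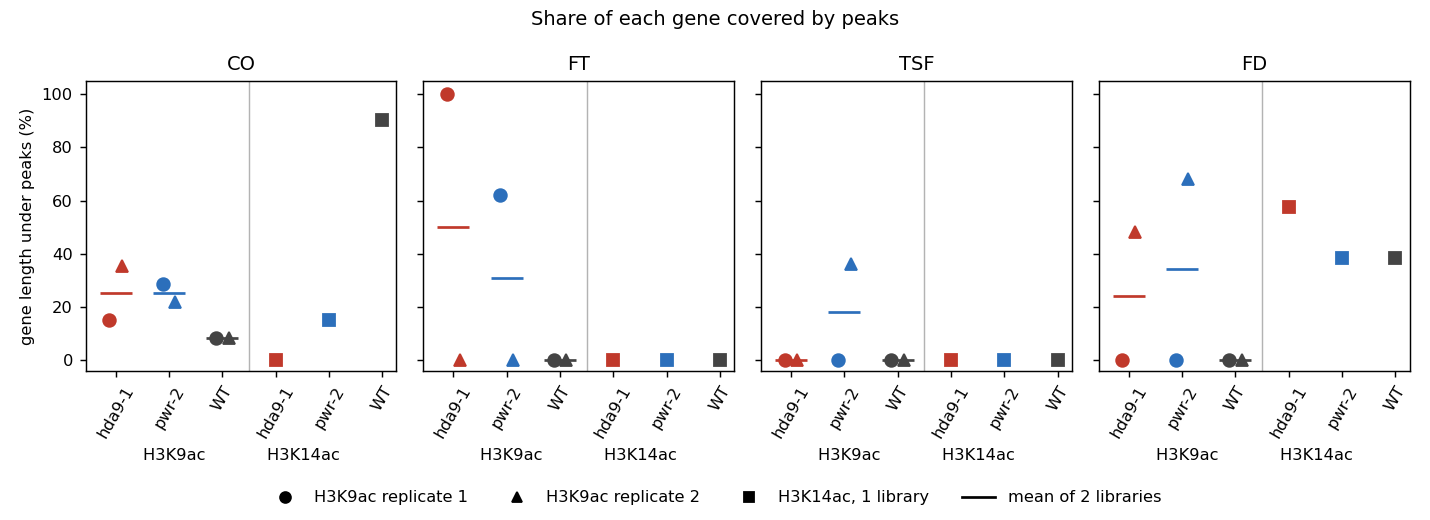
Share of the length of CO, FT, TSF and FD under peaks, in percent, for each library, grouped by genotype with H3K9ac left of the vertical line and H3K14ac right of it. Circles and triangles are H3K9ac replicates 1 and 2, squares the single H3K14ac libraries and bars the mean of 2 libraries. FT reaches 100% in 1 hda9-1 library and 0% in the other, and CO is at 0% for H3K14ac in hda9-1, against 90.3% in WT.

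FT, the main florigen gene, carried H3K9ac in replicate 1 of each mutant. Peaks covered its whole 2627 bp in hda9-1 replicate 1 and 0 bp in hda9-1 replicate 2, 1628 and 0 bp in pwr-2 replicates 1 and 2, and 0 bp in both WT libraries. With a peak in 1 library of each mutant and none in WT, the replicates necessarily differed by more than the mutant mean differed from WT. Means were 1313.5 ± 1858 bp in the hda9-1 libraries and 814 ± 1151 bp in the pwr-2 libraries, against 0 bp in WT (SD, n = 2 each), and the exact permutation p was 1 for each mutant. With a peak in 1 of the libraries compared, this p is fixed whatever the length of the peak and cannot test for a change. Among the genes without a WT peak, 6.9% had a peak in exactly 1 hda9-1 library and 8.48% in exactly 1 pwr-2 library.

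The peak over FT was part of a domain that began in the intergenic space between FT and FAS1, a chromatin assembly gene. It ran from 24327801 to 24334800 in hda9-1 replicate 1 and from 24327601 to 24333000 in pwr-2 replicate 1 (chromosome 1, TAIR10). In pwr-2 replicate 2 a peak from 24328201 to 24331000 ended 373 bp before the low-coordinate end of FT, and in WT replicate 1 a peak from 24328001 to 24331200 ended 173 bp before it. The interval before FT thus held a peak in 4 of 6 libraries, at least 1 of every genotype, and the peak ran on into the gene in 2 of these 4. In hda9-1 replicate 2 the nearest peak was 4402 bp away on the far side of FT, and in WT replicate 2 it was 6002 bp away. Hda9-1 replicate 2 held the most reads of all 9 libraries.

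These peaks were among the least dense of their libraries. The peak over FT held 285 reads per kb in hda9-1 replicate 1, which is 0.632 times the library's median and at percentile 2.4 of its peaks. In pwr-2 replicate 1 it held 117 reads per kb, 0.758 times the median and at percentile 16.02. The peaks that stopped before FT stood at percentile 8.99 in pwr-2 replicate 2 and 11.97 in WT replicate 1. All 4 were among the 25% of peaks with the fewest reads per bp in their library, and without those peaks FT had 0 bp in every library.

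The merged region at FT ran from 24327601 to 24334800, touched no other gene and held a peak in 4 of 6 libraries, so it was outside the edgeR test above. Its called peaks held 1997 and 0 reads in hda9-1, 631 and 682 in pwr-2, and 210 and 0 in WT. A 0 here stands for no called peak, not for an absence of reads. Scaled as for CO, that is 185 and 0 CPM in hda9-1, 188 and 85.9 in pwr-2, and 117 and 0 in WT. The reads of this region were not among those scaled to. The mutants and WT overlapped on this scale too, which rests on the same called peaks and is no separate measure of reads. With 5 kb on each side of FT, H3K9ac peaks covered 7827 and 599 bp in hda9-1, 5400 and 2800 in pwr-2, and 4027 and 0 bp in WT.

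No H3K14ac peak lay within 5 kb of FT in any genotype. The nearest was 12802 bp away in hda9-1, 15802 bp in pwr-2 and 5602 bp in WT, the last over the non-coding AT1G08757. GLC, a gene beyond FAS1, had no peak of either mark in any library. AT1G65481, the second gene on the far side of FT, was covered by H3K9ac over its whole 1184 bp in both hda9-1 libraries, over 0 bp in both pwr-2 libraries and over 65 bp in both WT libraries. The hda9-1 peaks there were 12200 bp long and at percentile 4.62 and 4.75 of read density in their libraries. Over all genes, 14.4% had longer H3K9ac cover in both hda9-1 libraries than in both WT libraries. Shorter cover in both pwr-2 libraries was seen at 4.16%.

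TSF, the paralog of FT, carried H3K9ac in 1 library, pwr-2 replicate 2. Peaks covered 0 bp of its 2240 bp in both hda9-1 libraries, 0 and 810 bp in pwr-2 replicates 1 and 2, and 0 bp in both WT libraries. The mean was 405 ± 573 bp in pwr-2, against 0 bp in WT (SD, n = 2 each), with an exact permutation p of 1. As at FT, a peak in 1 of the libraries compared fixes this p whatever its length. The 810 bp belonged to a peak from 11002201 to 11005600 on chromosome 4 that also covered part of LSD1, a regulator of cell death. It stood at percentile 25.5 of its library and stayed among the stricter peaks. A peak that reached LSD1 started within 1000 bp of TSF in each of the other 5 H3K9ac libraries, at 191 and 591 bp in hda9-1, 591 bp in pwr-2 replicate 1, and 591 and 991 bp in WT.

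Around TSF, acetylation lay at the neighbours. LSD1 was covered by H3K9ac over 1098 and 2466 bp in hda9-1, 1298 and 1098 in pwr-2, and 1898 and 1298 bp in WT, with overlapping ranges. AT4G20390, the next gene, had 876 and 1262 bp in hda9-1, and 0 bp in both pwr-2 libraries and both WT libraries. Over all genes, 14.4% were covered further in both hda9-1 libraries than in both WT libraries. The pseudogene on the other side of TSF had no peak of either mark in any library. Within 5 kb of TSF, H3K9ac peaks covered 3210 and 4410 bp in hda9-1, 2200 and 3400 in pwr-2, and 2800 and 1800 bp in WT. Hda9-1 did not overlap WT (exact permutation p = 0.333), whereas pwr-2 did (0.667). The share of all genes without overlap was not counted for such windows.

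The merged region that reaches TSF ran from 11002201 to 11009800, held 810 bp of TSF and otherwise lay over LSD1, AT4G20390 and JMJ14. The log2 change of its reads was 0.33 ± 0.18 (SE) in hda9-1 with an adjusted p of 0.512, and 0.09 ± 0.18 in pwr-2 with an adjusted p of 0.851 (edgeR). H3K14ac covered 0 bp of TSF in every genotype. Its nearest peak lay at LSD1, 791 bp away in hda9-1, 791 bp in pwr-2 and 1591 bp in WT.

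FD, the bZIP partner of FT, carried H3K9ac in replicate 2 of each mutant. Peaks covered 0 and 1000 bp of its 2081 bp in hda9-1 replicates 1 and 2, 0 and 1419 bp in pwr-2, and 0 bp in both WT libraries. Means were 500 ± 707 bp in the hda9-1 libraries and 709.5 ± 1003 bp in the pwr-2 libraries, against 0 bp in WT (SD, n = 2 each), with an exact permutation p of 1 for each mutant. As at FT, a peak in 1 of the libraries compared fixes this p whatever its length. The mutant peaks ran from 17004601 to 17005600 in hda9-1 and from 17003801 to 17005800 in pwr-2 (chromosome 4, TAIR10), and neither touched another gene. In pwr-2 the peak held 0.57 times the median read density and stood at percentile 0.76 of its library, and in hda9-1 it held 0.771 times the median, at percentile 13.95. Replicate 2 of each mutant held more reads in peaks than replicate 1, and the part of depth in this was not tested. Without the sparsest 25% of peaks, FD had 0 bp of H3K9ac in every library.

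Unlike FT and TSF, FD had H3K14ac in every genotype. Its H3K14ac peak covered 1200 bp in hda9-1, 800 bp in pwr-2 and 800 bp in WT. The peak started at 17004601 in hda9-1, 17004401 in pwr-2 and 17004601 in WT, within the span of the mutant H3K9ac peaks. In WT, FD therefore had H3K14ac and no called H3K9ac, which held for 11.3% of the genes with a WT H3K14ac peak. The peak held 0.789 times the median density of its library in hda9-1, 1.07 times in pwr-2 and 0.964 times in WT. Without the sparsest 25% of peaks, FD kept its 800 bp in pwr-2 and in WT and had 0 bp in hda9-1.

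The genes beside FD were acetylated in most libraries. LARP1c, an RNA-binding protein gene, was covered by H3K9ac over 1200 bp in both hda9-1 libraries, 1000 bp in both pwr-2 libraries and 1200 bp in both WT libraries. AT4G35905, next to FD on the other side, was covered over 1200 and 1266 bp in hda9-1, 1000 and 1266 in pwr-2, and 666 and 400 bp in WT. Both mutants were above WT without overlap at AT4G35905, as 14.4% of all genes were in hda9-1 and 7.87% in pwr-2. Within 5 kb of FD, H3K9ac peaks covered 2862 ± 1131 bp in the hda9-1 libraries and 3362 ± 2121 bp in the pwr-2 libraries, against 1662 ± 849 bp in WT, with overlap and an exact permutation p of 0.667 for each mutant.

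**Figure D3:**
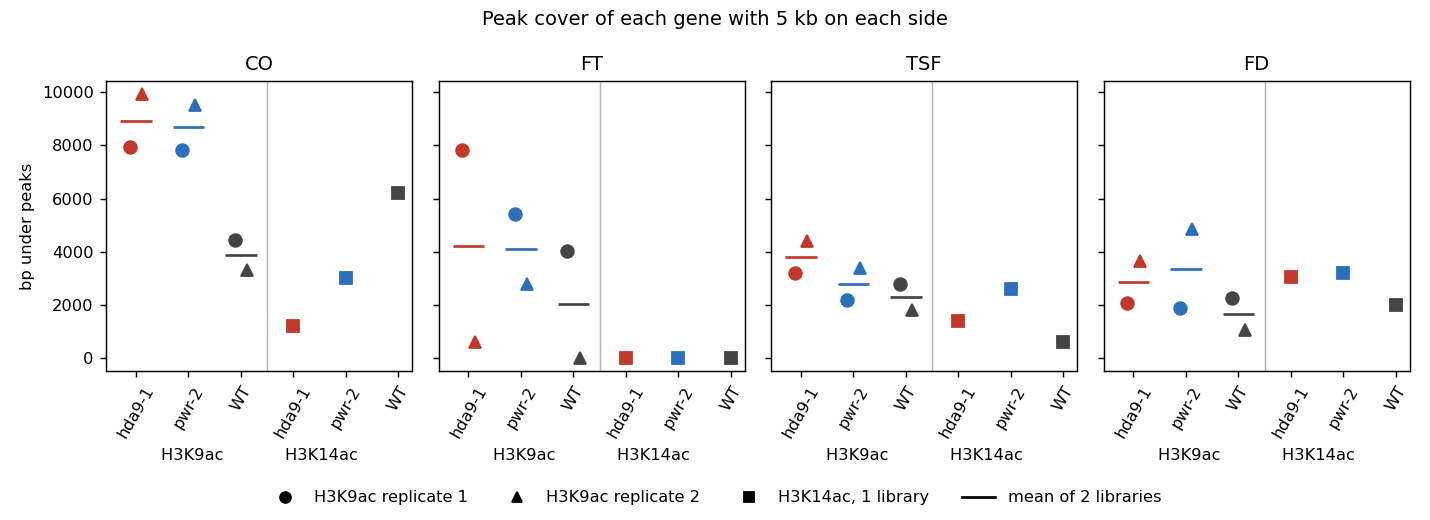
Bases under peaks within the gene and 5 kb on each side for CO, FT, TSF and FD, in bp, for each library, with genotypes along the horizontal axis and symbols as for replicates and marks in the plot of gene cover. Both mutants stand above WT without overlap at CO, where H3K9ac means are 8924 and 8681.5 bp, against 3881.5 bp in WT. The FT libraries spread from 0 to 7827 bp. No share over all genes was counted for these windows.

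The mutants did not differ from each other at any member beyond the spread of the replicates. Hda9-1 minus pwr-2 was 0 bp at CO, 499.5 bp at FT, -405 bp at TSF and -209.5 bp at FD, with an exact permutation p of 1 for each. At TSF, with a peak in 1 of the libraries compared, the p was fixed whatever the length of the peak. With 2 libraries each, these values do not show that the mutants act alike. The sets of H3K9ac libraries with a peak were counted over all genes after they were seen at the members. The set at FT, replicate 1 of both mutants, was seen at 74 genes, FT included, or 0.195% of the total, that at TSF by 214 or 0.565% and that at FD by 154 or 0.406%. CO, with a peak in all 6, shared its set with 36.2% of genes.

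The rest of the pathway was read from a list of 45 other genes. Peaks for H3K9ac lay over 31 of them in all 6 libraries, over 5 in some and over 9 in none, against 44.9%, 26.3% and 28.8% of all protein-coding genes. All 4 CDF genes (CDF1, CDF2, CDF3 and CDF5), repressors of CO transcription, had peaks in all 6. So did all 6 of COP1, SPA1 to SPA4 and HOS1, which act in the destruction of CO protein, and so did the 5 NF-Y partners of CO and the Mediator gene MED25. Of 6 CO-like genes, 5 had peaks in all 6 libraries and COL9 in none.

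The other genes of the PEBP family were without peaks. TFL1, the floral repressor paralog of FT, and BFT, ATC and MFT had no peak of either mark in any of the 9 libraries, as did 23.7% of protein-coding genes. FT and TSF were thus the PEBP genes with any H3K9ac peak. FDP, a paralog of FD, had no H3K9ac peak and carried H3K14ac over 600 bp in hda9-1, 976 bp in pwr-2 and 776 bp in WT, the same pairing of marks that FD had in WT. Of the targets of the florigen complex, SOC1 had H3K9ac in all 6 libraries, FUL in 4, and AP1 and LFY in none.

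**Figure D4:**
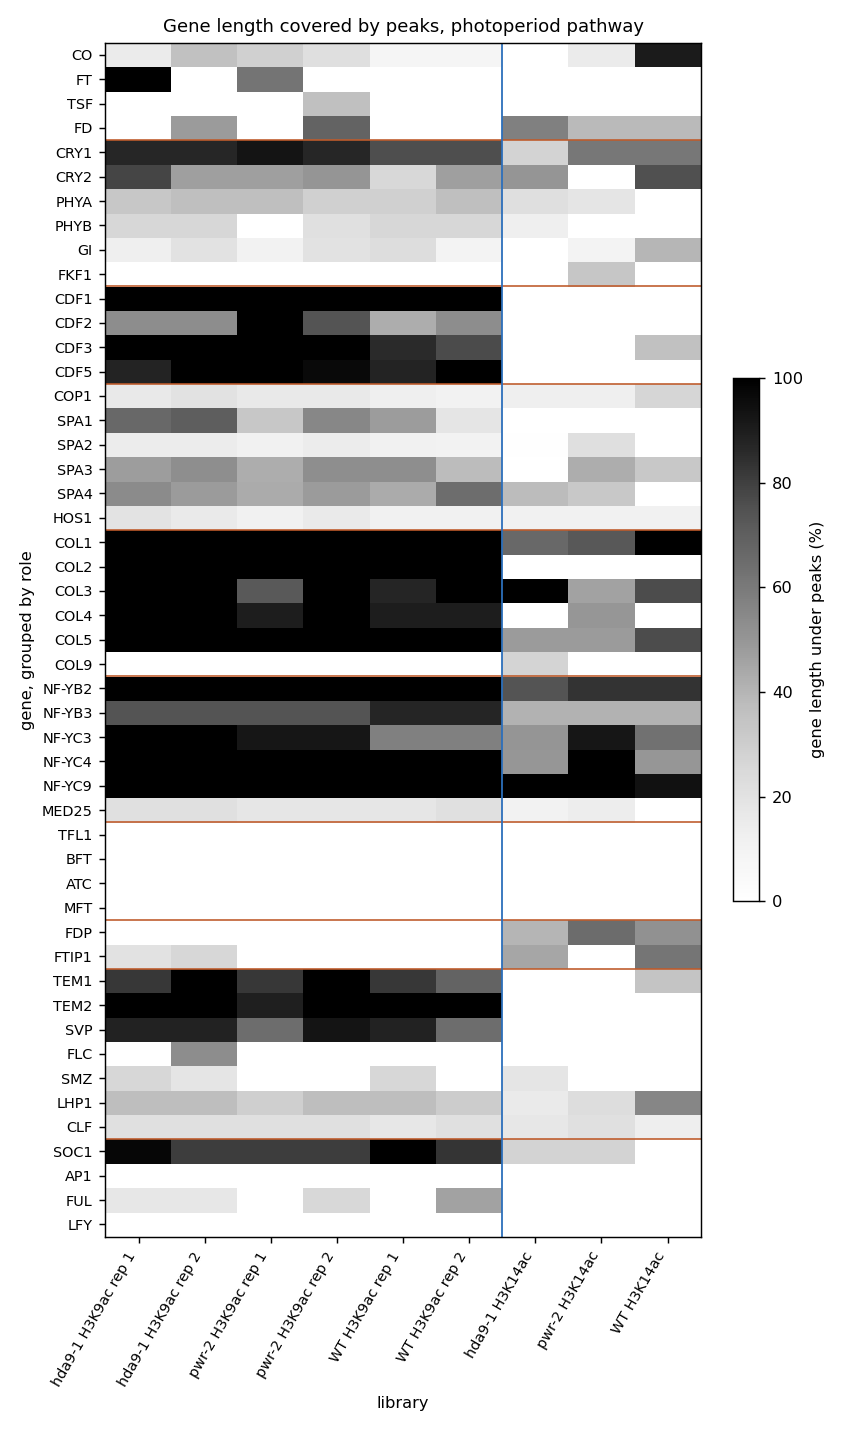
Share of gene length under peaks, in percent, for CO, FT, TSF and FD at the top and the 45 other pathway genes below, grouped by role, with 1 column per library and H3K14ac right of the vertical line. CDF, COP1 and SPA, CO-like and NF-Y genes are covered for H3K9ac in most columns, while the rows of TFL1, BFT, ATC and MFT are empty throughout.

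Gained and lost calls were also read for the list. FTIP1, which encodes a protein needed for export of FT from companion cells, was the 1 gene of 45 gained in hda9-1, with 709 and 909 bp, against 0 bp in both WT libraries, and it had 0 bp in both pwr-2 libraries. No pathway gene was gained in pwr-2 and none was lost in either mutant. Over all genes 3.83% were gained in hda9-1 and 2.08% in pwr-2, and 0.438% and 0.599% lost, so the list's counts are near this background. Stricter peaks gave 2 list genes gained in hda9-1, and 1 gained and 1 lost in pwr-2. Leaving out a library loosens the rule and can only add calls. The count gained in hda9-1 was then 2 without hda9-1 replicate 1 or WT replicate 1, and 3 without WT replicate 2. In pwr-2, 1 gene was lost without pwr-2 replicate 2 or WT replicate 2. Covered length was higher without overlap in 9 of 45 genes in hda9-1 and in 5 of 45 in pwr-2, beside the 14.4% and 7.87% of all genes given for CO. CDF3, CRY1, COP1 and NF-YC3 were higher in both mutants. The blue light receptor gene CRY1 had 3150 bp in both hda9-1 libraries, 3350 and 3150 bp in pwr-2, and 2750 bp in both WT libraries. NF-YC3 had 1589 bp in both hda9-1 libraries, 1471 bp in both pwr-2 libraries and 918 bp in both WT libraries. Lower without overlap were NF-YB3 in both mutants, and PHYB and SOC1 in pwr-2, against 2.51% of all genes in hda9-1 and 4.16% in pwr-2. The median change of the list was 0 bp in both mutants, as it was over all protein-coding genes.

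FLC, a repressor of FT, had 3200 bp of H3K9ac in hda9-1 replicate 2 and 0 bp in the other 5 H3K9ac libraries. For H3K14ac, cover was higher in hda9-1 than in WT for 11 list genes and lower for 14, against 23.1% and 17.3% of all genes. In pwr-2 it was higher for 13 and lower for 10, against 25% and 15.6% of all genes. GI, a clock-regulated activator of CO, had 0 bp of H3K14ac in hda9-1, 590 bp in pwr-2 and 2390 bp in WT. COL5 had 800 bp in hda9-1, 800 bp in pwr-2 and 1264 bp in WT. By the marked-end rule, applied to single libraries, H3K14ac was gained at 6 list genes and lost at 4 in hda9-1, beside 10.3% and 4.66% of all genes. Those gained were PHYA, PHYB, SPA4, MED25, COL9 and SMZ, and those lost GI, SPA3, COL5 and FDP. It was gained at 5 and lost at 1 in pwr-2, beside 10.9% and 4.17%, with FKF1, PHYA, SPA2, MED25 and COL4 gained and COL5 lost.

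Genes with the most similar cover over the 9 libraries were sought among 10373 protein-coding genes with a symbol, by the mean absolute difference in percent of gene length. For CO they were TAF5 (6.77 points), SGF29a (9.1 points) and NUB1 (9.81 points). TAF5 had 18% in both hda9-1 H3K9ac libraries, 21.8% and 18% in pwr-2, and 14.2% in both WT libraries, while its H3K14ac cover was 10.4% in hda9-1, 18% in pwr-2 and 94.4% in WT. LCR35 and APT4 were nearest to FT (4.23 points each), with 100% in replicate 1 of each mutant and 0% in every other library, followed by AAE12 (5.59 points). EB1C (0.174 points), LEA7 (0.742) and SERAT3;2 (0.819) were nearest to TSF, and AtkdsA1 (8.74), RLP55 (10.3) and BAM6 (10.4) to FD. These likenesses describe 9 libraries and say nothing of shared function.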

How the data were processed

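The submitters' processing notes name Bowtie, SICER and TAIR10, with versions, thresholds and the handling of duplicate reads not given in the sources used here. The deposited lists have no header. Beside each peak the authors gave a whole number, taken here as a count of its reads because it grew with width (Spearman rho between 0.797 and 0.938). Of 18 samples, 9 inputs were not analysed here.

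Gene positions came from RefSeq on TAIR10.1 and are not printed. Unshifted positions gave the highest share of gene bases under peaks in 45 of 45 library and chromosome pairs. No strand was given, so both gene ends were read. Covered length was compared with two-sided exact permutation tests. Counts in merged regions with a peak in all 6 H3K9ac libraries were tested with edgeR 4.0.16 (quasi-likelihood, TMM, 6 libraries in 1 fit, Benjamini-Hochberg at 0.05), tested on simulated data, and with DESeq2 1.42.0. The simulated counts had a common spread and no called peaks of varying length, and their outcome is not given here. Alternatives were stricter peaks, peaks cut to equal yield, other windows, filters and scalings, a replicate block, and left-out libraries. Named were the members, the 2 nearest genes on each side, the 3 most similar genes, and pathway genes that were gained or lost or stand for a role. Other named genes (bZIP3, JMJ14 and pathway genes listed for a change in length) were chosen after their values were seen. The members and lists were chosen with earlier results of these data known. Promoter motifs were not searched.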

Additional observations from a re-analysis of the deposited data

Results flagged for a closer look

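CO was flagged because its covered length moved in opposite directions for the 2 marks in each mutant. In hda9-1 minus WT it changed by 500 bp for H3K9ac and by -2639 bp for H3K14ac. In pwr-2 minus WT it changed by 500 bp for H3K9ac and by -2200 bp for H3K14ac. Every mutant H3K9ac library lay above WT and the single H3K14ac library of each mutant below it, and the difference between the marks was not tested.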

How the results depend on the processing

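Of 328 alternative values for 44 results, 244 were labelled the same, 63 moved, 19 reversed and 2 newly passed 0.05. Tested results were the same where direction and side of 0.05 were kept. Counts were the same within a fixed factor of the main count. H3K14ac lengths were the same within a binomial interval over the bases of the gene, which is no replicate spread. Part of this tally was fixed in advance. The replicate block cannot change a covered length, and its permutation p cannot fall below 0.5. Values are differences in bp unless named, and causes were not tested. Stricter peaks gave -239 for CO H3K9ac in both mutants, -377 (hda9-1) and -619.5 (pwr-2) within 5 kb of CO, 0 for CO H3K14ac, 0 for FT, FD and the 5 kb around FT in every comparison, -800 for FD H3K14ac in hda9-1, and 424 (hda9-1) and 471 (pwr-2) genes lost, against 166 and 227. Equal yield gave -19.5 for CO in hda9-1, -519.5 for CO in hda9-1 minus pwr-2, 0 for FT in hda9-1, -814 for FT in hda9-1 minus pwr-2, -2013.5 around FT in hda9-1, 0 for FD, 872 genes gained and 837 lost in hda9-1, and 502 lost in pwr-2. CO was then gained in pwr-2 alone, as with 90% of an end required. With 500 bp added on each side, CO H3K14ac was -3000 in hda9-1 and -2061 in pwr-2, TSF 155 and FD H3K14ac 562 in hda9-1. With 10 kb on each side, TSF was -100 in pwr-2.

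DESeq2 gave log2 changes at CO of 0.96 in hda9-1 and 1.08 in pwr-2, past 0.05, with 107 regions higher and 45 lower for hda9-1, and 131 and 82 for pwr-2, against 0 by edgeR. Reads per covered bp gave -0.27 (CO, hda9-1), -0.32 (CO, pwr-2) and -0.15 (TSF, hda9-1), and 1 region lower in each mutant.

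Leaving out 1 library at a time, hda9-1 minus WT ran from 200 to 800 at CO, 0 to 2627 at FT, 0 to 1000 at FD, and -1414.5 to 5813.5, 910 to 2110 and 400 to 2000 around FT, TSF and FD, with 0.13 to 0.56 in log2 reads at TSF. Pwr-2 minus WT ran from 0 to 1628 at FT, 0 to 810 at TSF, 0 to 1419 at FD, and 73 to 4100, -100 to 1100 and 200 to 3200 around FT, TSF and FD, with -0.11 to 0.31 in log2 reads at TSF. Hda9-1 minus pwr-2 ran from -300 to 300 at CO, -814 to 1813 at FT, -810 to 0 at TSF and -919 to 500 at FD. Genes gained ran from 1872 to 3216 in hda9-1 and 1486 to 2000 in pwr-2, and genes lost from 227 to 1005 and 341 to 1222. With a library left out the call needs fewer libraries, so calls can only be added. The counts could not fall below the 1450 and 789 gained, and 166 and 227 lost, with every library. FT was gained without replicate 2 of a mutant, FD without replicate 1, and TSF without pwr-2 replicate 1.

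Differences in log reads between replicates 1 and 2 were correlated between genotypes over 8287 regions. The correlation was 0.0831 for WT with hda9-1, 0.171 for WT with pwr-2 and 0.164 for hda9-1 with pwr-2. Libraries were not paired in the main tests, and the cause of these positive values was not tested. With the replicate block, the log2 change at CO was 0.98 in hda9-1 and 1.08 in pwr-2, 0 regions were called, and no call changed. Cover around members under stricter peaks, equal yield, left-out libraries and the block, and hda9-1 minus pwr-2 under each setting, were chosen after seeing the data. With 2 libraries a group for H3K9ac and 1 for H3K14ac, and unequal read numbers, a missing peak may lie below detection.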
